A study of Homo sapiens with 4 samples.

Results

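The genes described here encode the histone variant H2A.Z, the acidic chaperones ANP32E and ANP32B, and subunits of the SRCAP, p400/TIP60 and INO80 complexes. These complexes place H2A.Z in chromatin or move it. The 37 genes were chosen by name, out of 15221 genes with values. Transcripts were joined to a gene by the symbol of the deposited table and summed. All 37 reached 5 counts in 2 or more libraries and were tested. The values come from 2 libraries of PANC-1 and 2 libraries of PZT-2. PANC-1 is an established human pancreatic adenocarcinoma line, untransduced here. PZT-2 is a clone of PANC-1 that stably carries lentiviral shRNAs driven by a U6 promoter against all 3 H2A.Z isoforms, one aimed at the 3′ UTR of H2AFZ and one at an exon that both main H2AFV isoforms contain, so the comparison bears on how the H2A.Z machinery was expressed in cells depleted of H2A.Z. PZT-2 is 1 clone and was compared with its untransduced parent, so that effects of the clone, of the vector, of the selection and of the knockdown cannot be told apart, and cells with a scrambled shRNA are not analysed here. Puromycin served to select stably transduced cells, a step that untransduced PANC-1 did not go through. Both lines shared a growth medium and were labelled with passages 12 to 13. The study calls its RNA-seq replicates biological, but nothing in the labels ties a library to a culture. The p values therefore measure the spread between libraries of 1 parent line and 1 clone, and how far it is technical is not known.

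H2A.Z replaces H2A in nucleosomes beside many promoters and enhancers. In mammals the genes H2AFZ and H2AFV (H2AZ1 and H2AZ2 in current RefSeq) encode the close relatives H2A.Z.1 and H2A.Z.2, and splicing of H2AFV gives H2A.Z.2.1 and the shorter H2A.Z.2.2. The ATPases SRCAP and p400 (EP400) exchange H2A for H2A.Z within large complexes that share several subunits, INO80 remodels nucleosomes that hold H2A.Z, and ANP32E is a chaperone that removes H2A.Z from chromatin. Raised expression of H2A.Z is known from several kinds of cancer.

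Both H2A.Z genes were lower in PZT-2, H2AFZ far more than H2AFV. Normalized counts (reads per gene after correction for library size, on the scale of the mean library) of H2AFZ were 6389 and 6034 in PANC-1 replicates 1 and 2 and 2213 and 2258 in PZT-2 replicates 1 and 2. The PZT-2 libraries lay far below both PANC-1 libraries and close to each other. The change of PZT-2 against PANC-1 was -1.47 on the log2 scale, with a standard error (SE) of the fitted value of 0.0565 (adjusted p = 6.15e-05 by the quasi-likelihood test of edgeR, adjusted by Benjamini and Hochberg over 15101 genes, as for each adjusted p of a gene given here), which left 0.36 times the parental level. For H2AFV the normalized counts were 3344 and 3452 in PANC-1 and 2590 and 2717 in PZT-2, again without overlap. Its log2 change was -0.36 (SE 0.0568, adjusted p = 0.00563). Without PZT-2 replicate 1 it was -0.32 (adjusted p = 0.0559), and relative to the mRNA of the glycolytic enzyme GAPDH it was -0.18 (adjusted p = 0.117).

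Per length, H2AFZ was the highest of all 37 members in PANC-1, at 985 and 964 TPM (transcript abundance per length, scaled to the same sum in every library), and ranked 3 in PZT-2 at 363 and 369 TPM, behind MORF4L1 and MORF4L2. H2AFV was at 284 and 296 TPM in PANC-1 and at 238 and 248 TPM in PZT-2. Both genes together gave 1269 and 1260 TPM in PANC-1 and 601 and 617 TPM in PZT-2, so that the summed H2A.Z mRNA level of the clone was 48.1% of that of its parent. H2AFV made up 22.4% and 23.5% of this sum in PANC-1 and 39.6% and 40.2% in PZT-2. The difference of 17.0 percentage points was far larger than the spread of either pair of libraries (SD 0.792 and 0.395 percentage points), and the two-sided exact permutation test over 2 against 2 libraries gave p = 0.333, the smallest it can give. H2A.Z mRNA in PZT-2 was thus lower and came in a larger share from H2AFV.

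**Figure D1:**
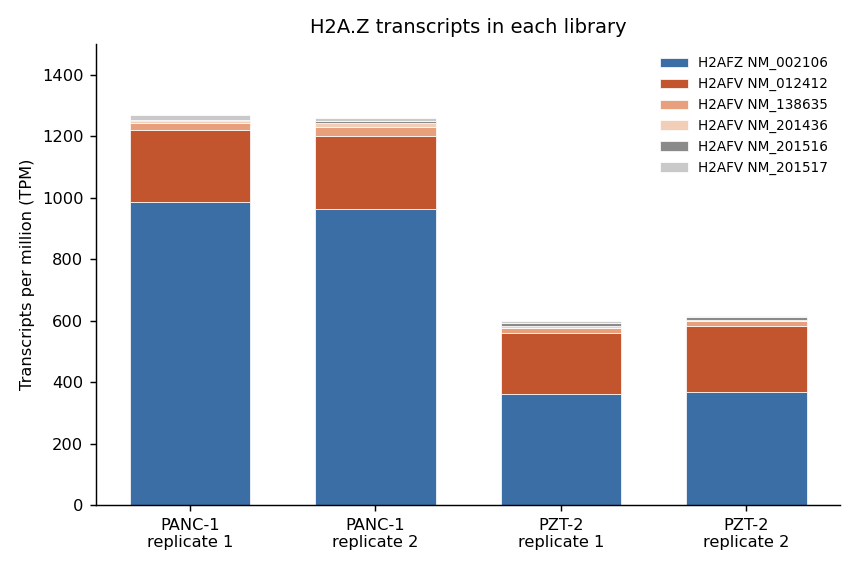
TPM of the transcript of H2AFZ and of the 5 transcripts of H2AFV, stacked for each of the 4 libraries. The bars reach 1269 and 1260 TPM in PANC-1 and 601 and 617 TPM in PZT-2, and most of the difference is in the H2AFZ transcript NM_002106.

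The transcripts of H2AFV were estimated separately by kallisto, which divides reads among them, so a value of 1 transcript is less certain than the sum. NM_012412, which encodes H2A.Z.2.1, took 72.8% and 69.1% of all H2AFV counts in the PANC-1 libraries and 74.5% and 77.5% in the PZT-2 libraries. NM_138635, which encodes H2A.Z.2.2, held 19.7% and 22.7% in PANC-1 and 16.8% in both PZT-2 libraries. They part after exon 4, as the 30 bases around their junctions of exon 4 with exon 5 show, with the bases that differ from there on in capitals.
NM_012412 (H2A.Z.2.1): ccatagctgggggtgGTGTGATCCCTCACA
NM_138635 (H2A.Z.2.2): ccatagctgggggtgAGAAGAGAAGGTGTT

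Reads across these junctions can tell NM_012412 and NM_138635 apart. The earlier exons of these transcripts and the sequences of the other H2AFV transcripts were not compared. The normalized counts of NM_138635 were 657 and 787 in PANC-1 and 434 and 456 in PZT-2, a log2 change of -0.70 with an SE of 0.12 (adjusted p = 0.112 over 30403 transcripts). Those of NM_012412 were 2431 and 2397 in PANC-1 and 1927 and 2099 in PZT-2, a log2 change of -0.26 with an SE of 0.0607 (adjusted p = 0.149). The libraries of both transcripts did not overlap between the lines, and neither passed this test. Both were called lower by the Wald test of DESeq2. NM_138635 was also called by edgeR with at least 10 counts asked of all 4 libraries, so these outcomes depend on filter and tool. NM_201516 was at 54.0 and 59.9 normalized counts in PANC-1 and at 71.3 and 66.0 in PZT-2 (log2 change 0.27 with an SE of 0.322, adjusted p = 0.801). NM_201517 was at 137.2 and 105.3 in PANC-1 and at 75.35 and 50.28 in PZT-2 (log2 change -0.95 with an SE of 0.359, adjusted p = 0.308). NM_201436 was at 61.86 and 120.8 in PANC-1 and at 77.36 and 38.45 in PZT-2 (log2 change -0.66 with an SE of 0.585, adjusted p = 0.709). A test of whether each transcript changed by as much as its gene (edgeR's diffSpliceDGE) called none of the 92 transcripts tested from 25 members, beside 15 of 22127 (0.0678%) over all genes. At an unadjusted p below 0.05 there was 1 member transcript, beside 951 over all genes. That transcript was NM_001350846 of UCHL5, named after its values were seen, at 0 in both PANC-1 libraries and at 29.1 and 49.3 normalized counts in PZT-2 (adjusted p = 0.276).

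Taken transcript by transcript, 104 of the 105 member transcripts with values were tested, and NM_002106 of H2AFZ alone passed (adjusted p = 0.035), beside 45 of 30403 transcripts (0.148%) over all genes. This call was lost with the replicate number as a block and with each of the 4 libraries left out. The Wald test of DESeq2 called 19 member transcripts on the same counts, so the number depends on the tool. At the level of genes 21 of the 37 members passed, 14 of them lower and 7 higher in the clone. Of the 15101 genes tested, 2223 (14.7%) were called higher and 2064 (13.7%) lower. Members were thus called higher about as often as any gene, at 18.9%, and called lower more often, at 37.8%, as counts without a test of that difference. The lower members include H2AFZ and H2AFV, at which the shRNAs were aimed, and all genes were not matched to the members in level. The libraries of the lines did not overlap in 31 members, with PZT-2 above PANC-1 in 11 (29.7%) and below it in 20 (54.1%), against 33.3% and 33% of all genes. The median log2 change of the members was -0.16, with values from -1.47 to 0.70, beside a median of 0.00093 over all genes. Relative to GAPDH, to which the study scaled its RT-qPCR and which itself had a log2 change of -0.18, the median of all genes moved up by 0.17 and the split became 8 members higher and 5 lower, with 3493 genes higher and 906 lower. Directions below are therefore relative to the bulk of all genes.

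**Figure D2:**
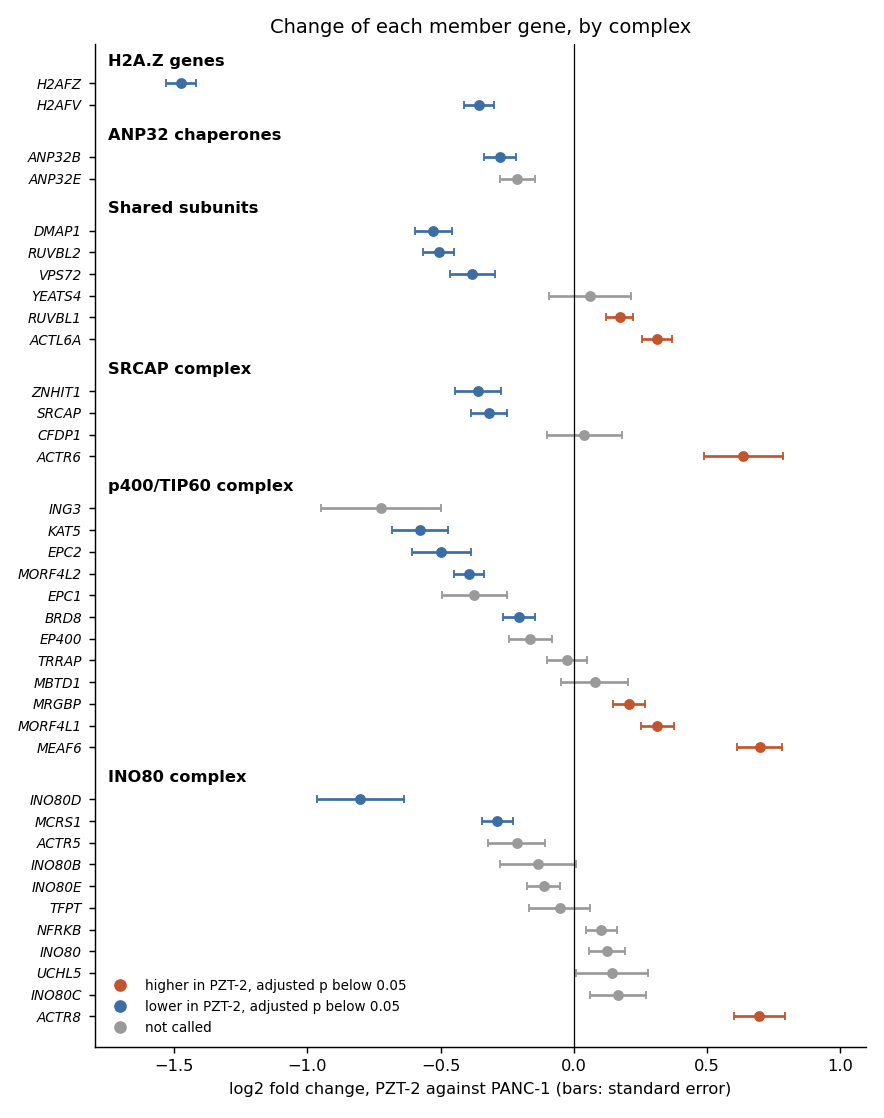
Log2 fold change of each of the 37 genes, PZT-2 against PANC-1, with its standard error, arranged by complex and coloured by the call of edgeR. H2AFZ at -1.47 stands apart, and every complex holds genes on both sides of 0.

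Among the chaperones, ANP32B fell and ANP32E did not pass. ANP32E, which takes H2A.Z-H2B dimers out of nucleosomes, was at 906 and 934 normalized counts in PANC-1 and at 805 and 784 in PZT-2. Its libraries did not overlap, with a log2 change of -0.21 and an SE of 0.0661 (adjusted p = 0.0557). ANP32E passed with at least 10 counts asked of all 4 libraries (adjusted p = 0.0445). ANP32B, a related acidic histone chaperone, was at 2699 and 2600 in PANC-1 and at 2247 and 2123 in PZT-2, a log2 change of -0.28 with an SE of 0.06 (adjusted p = 0.0164). The ANP32B call was lost without PZT-2 replicate 1 (-0.32, adjusted p = 0.063), without PZT-2 replicate 2 (-0.24, adjusted p = 0.143) and relative to GAPDH (-0.10, adjusted p = 0.279). Per length, ANP32E was at 0.149 and 0.159 times the TPM of ANP32B in PANC-1 and at 0.159 and 0.163 times in PZT-2, and these ratios overlapped.

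Of the 3 ATPases, SRCAP fell, while EP400 and INO80 did not pass. SRCAP, the engine of the complex that bears its name, was at 2625 and 2503 normalized counts in PANC-1 and at 2148 and 1966 in PZT-2, with a log2 change of -0.32 (SE 0.0672, adjusted p = 0.0154). EP400, the ATPase of the p400/TIP60 complex, was at 2550 and 2454 in PANC-1 and at 2400 and 2072 in PZT-2 (log2 change -0.16, SE 0.081, adjusted p = 0.188). INO80 was at 893 and 955 in PANC-1 and at 997 and 1022 in PZT-2 (log2 change 0.13, SE 0.0681, adjusted p = 0.221). The lines did not overlap for any of the 3, with the PZT-2 values the lower ones for SRCAP and EP400 and the higher ones for INO80. The TPM of INO80 was 0.572 and 0.639 times that of SRCAP in PANC-1 and 0.778 and 0.874 times in PZT-2. For EP400 the shift was smaller, from 0.8255 and 0.8333 times SRCAP in PANC-1 to 0.9494 and 0.8955 times in PZT-2. The SRCAP call was lost without PZT-2 replicate 2 (-0.25) and relative to GAPDH (-0.14, adjusted p = 0.166). It was also lost with limma-trend on log2 TPM (adjusted p = 0.0708 and 0.071 with pseudocounts of 1 and 0.1). With the most abundant transcript of each gene alone, SRCAP was at -0.32 (adjusted p = 0.0501). SRCAP has 1 transcript with values, so its own counts were the same there and only those of other genes changed.

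Of the 6 subunits that several complexes share, 2 rose (33.3%, beside 14.7% of all genes) and 3 fell (50%, beside 13.7%). They are the AAA+ ATPases RUVBL1 and RUVBL2, which form mixed rings in all 3 complexes, the actin-related ACTL6A, the H2A.Z-binding VPS72 (YL1), DMAP1 and the acetyl-lysine reader YEATS4. RUVBL2 was at 3982 and 3739 normalized counts in PANC-1 and at 2747 and 2688 in PZT-2, a log2 change of -0.51 (SE 0.0581, adjusted p = 0.00185). RUVBL1 was at 3667 and 3603 in PANC-1 and at 4089 and 4111 in PZT-2, a log2 change of 0.17 (SE 0.0506, adjusted p = 0.0449). The partners of 1 ring thus went opposite ways, RUVBL2 down and RUVBL1 slightly up. Per length they were close to equal in PANC-1, with 1.04 and 1.09 TPM of RUVBL1 for each TPM of RUVBL2, and stood at 1.68 and 1.73 in PZT-2. The RUVBL1 call was lost without PANC-1 replicate 2 (0.15, adjusted p = 0.0625), without PZT-2 replicate 1 (0.18, adjusted p = 0.206), without PZT-2 replicate 2 (0.17, adjusted p = 0.234) and with the replicate number as a block (adjusted p = 0.0804), whereas RUVBL2 kept its call under all 16 alternatives tried (other scalings, filters, counts and tests, a replicate block and each library left out).

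DMAP1 was at 930 and 889 normalized counts in PANC-1 and at 641 and 620 in PZT-2, a log2 change of -0.53 (SE 0.07, adjusted p = 0.00299) that also kept its call under all 16. VPS72, which hands H2A.Z to the SRCAP and p400 complexes, was at 1039 and 983 in PANC-1 and at 726 and 826 in PZT-2, a log2 change of -0.38 (SE 0.0843, adjusted p = 0.018). ACTL6A, which is also a subunit of SWI/SNF-type complexes, was at 1650 and 1698 in PANC-1 and at 2082 in both PZT-2 libraries, a log2 change of 0.31 (SE 0.0566, adjusted p = 0.00864). In all 3 genes the libraries of the lines stood apart. YEATS4, at 214 to 268 normalized counts in PANC-1 and 228 to 277 in PZT-2, overlapped between the lines (log2 change 0.062, adjusted p = 0.809). Calls were lost for VPS72 without PZT-2 replicate 1 (-0.29, adjusted p = 0.097) and relative to GAPDH (-0.20, adjusted p = 0.159), and for ACTL6A without PZT-2 replicate 1 (0.31, adjusted p = 0.0656) or replicate 2 (0.31, adjusted p = 0.0745).

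Including these shared subunits, 8 of the 10 SRCAP complex genes were called, 3 higher (30%) and 5 lower (50%), beside 14.7% and 13.7% of all genes. The median log2 change of the 10 was -0.14. ZNHIT1, a zinc finger subunit needed for H2A.Z deposition, was at 902 and 793 normalized counts in PANC-1 and at 678 and 642 in PZT-2, a log2 change of -0.36 (SE 0.0876, adjusted p = 0.0251). ACTR6, the actin-related subunit particular to this complex, went the other way, from 116 and 102 in PANC-1 to 157 and 181 in PZT-2, a log2 change of 0.64 (SE 0.148, adjusted p = 0.0217). The libraries of neither gene overlapped. The ACTR6 value rests mostly on transcripts annotated as noncoding, since the coding transcript NM_022496 held 6.71% and 27.7% of its counts in PANC-1 and 11.7% and 18.0% in PZT-2. CFDP1, at 168 to 195 in PANC-1 and 173 to 201 in PZT-2, overlapped (adjusted p = 0.867). The ZNHIT1 call was lost without PANC-1 replicate 1 (-0.27, adjusted p = 0.0518), PZT-2 replicate 1 (-0.40, adjusted p = 0.0695) or PZT-2 replicate 2 (-0.32, adjusted p = 0.137) and relative to GAPDH (-0.18, adjusted p = 0.158), and that of ACTR6 without PANC-1 replicate 2 (0.54, adjusted p = 0.0525) or PZT-2 replicate 2 (0.53, adjusted p = 0.14) and with DESeq2 (0.63, adjusted p = 0.0989). With its most abundant transcript alone ACTR6 had a log2 change of 0.29 (adjusted p = 0.698).

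The p400/TIP60 complex joins H2A.Z exchange to acetylation of histones H4 and H2A. Of its 18 genes 5 were called higher (27.8%) and 7 lower (38.9%), beside 14.7% and 13.7% of all genes. The median log2 change of the 18 was -0.18. KAT5 (TIP60), the acetyltransferase, was at 1317 and 1148 normalized counts in PANC-1 and at 760 and 889 in PZT-2, a log2 change of -0.58 (SE 0.103, adjusted p = 0.00848). EPC2, a paralogue of the scaffold EPC1 that ties KAT5 to nucleosomes, was at 224 and 221 in PANC-1 and at 160 and 155 in PZT-2, a log2 change of -0.50 (SE 0.112, adjusted p = 0.0189). BRD8, the bromodomain subunit, was at 1184 and 1152 in PANC-1 and at 1012 and 1014 in PZT-2, a log2 change of -0.21 (SE 0.061, adjusted p = 0.0477). All 3 fell without overlap between the lines.

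The highest log2 change of the complex was that of MEAF6, a small subunit that KAT5 shares with other acetyltransferase complexes. MEAF6 was at 613 and 574 normalized counts in PANC-1 and at 907 and 1017 in PZT-2, a log2 change of 0.70 (SE 0.0856, adjusted p = 0.00228). It was called under all 16 alternatives. MRGBP, which binds the chromodomain protein MORF4L1 (MRG15), was at 1313 and 1279 in PANC-1 and at 1468 and 1526 in PZT-2, a log2 change of 0.21 (SE 0.0605, adjusted p = 0.0446). MORF4L1 itself was at 4523 and 4650 in PANC-1 and at 5448 and 5963 in PZT-2, a log2 change of 0.31 (SE 0.0612, adjusted p = 0.0113). Its paralogue MORF4L2 (MRGX) lacks the chromodomain and was at 7771 and 8129 in PANC-1 and at 5848 and 6262 in PZT-2, a log2 change of -0.39 (SE 0.0563, adjusted p = 0.00394). The MORF4L1 and MORF4L2 libraries stood apart between the lines in opposite directions. Per length, MORF4L1 was at 0.629 and 0.619 times the TPM of MORF4L2 in PANC-1 and at 1.01 and 1.02 times in PZT-2, so that the order of the pair, close in sequence over much of the protein, went from MORF4L2 above MORF4L1 to about equal.

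The other 6 genes of the complex did not pass. ING3, a reader of methylated H3, was low, at 65.3 and 73.2 normalized counts in PANC-1 and at 46.3 and 37.6 in PZT-2 (log2 change -0.72, SE 0.226, adjusted p = 0.0556), and it passed with at least 10 counts asked of all 4 libraries (adjusted p = 0.0333). EPC1 was at -0.37 on the log2 scale (adjusted p = 0.0639), with the libraries of ING3 and EPC1 all lower in PZT-2. TRRAP, the large scaffold, and MBTD1 had log2 changes of -0.026 and 0.080, and the remaining pair, EP400 and YEATS4, is given above. The most abundant transcript of EPC1, NM_001272004, held between 36.8% and 96.0% of the gene's counts in single libraries, and alone it gave a log2 change of 0.46 (adjusted p = 0.297), against the direction of the sum. EPC1 was called without PANC-1 replicate 1 (-0.48, adjusted p = 0.021).

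Several calls of this complex depended on 1 library or setting. KAT5 was not called with its most abundant transcript alone (-0.48, adjusted p = 0.199). EPC2 was not called without PZT-2 replicate 1 (-0.52, adjusted p = 0.0831) or replicate 2 (-0.48, adjusted p = 0.115) or with DESeq2 (adjusted p = 0.115) or limma-trend (adjusted p = 0.0549 and 0.0529 with pseudocounts of 1 and 0.1). BRD8 was not called without PANC-1 replicate 1 (-0.19, adjusted p = 0.0844), PZT-2 replicate 1 (-0.20, adjusted p = 0.195) or PZT-2 replicate 2 (-0.21, adjusted p = 0.214), with the replicate number as a block (adjusted p = 0.0845) or with DESeq2 (adjusted p = 0.145) or limma-trend (adjusted p = 0.0942 and 0.0953). MRGBP was not called without PANC-1 replicate 2 (0.18, adjusted p = 0.0687), PZT-2 replicate 1 (0.24, adjusted p = 0.138) or PZT-2 replicate 2 (0.18, adjusted p = 0.258), with the block (adjusted p = 0.0787) or with DESeq2 (adjusted p = 0.115). MORF4L1 was not called without PZT-2 replicate 2 (0.25, adjusted p = 0.0992). Relative to GAPDH, MORF4L2 had a log2 change of -0.22 (adjusted p = 0.0681), EPC2 of -0.32 (adjusted p = 0.0958) and BRD8 of -0.030 (adjusted p = 0.794).

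**Figure D3:**
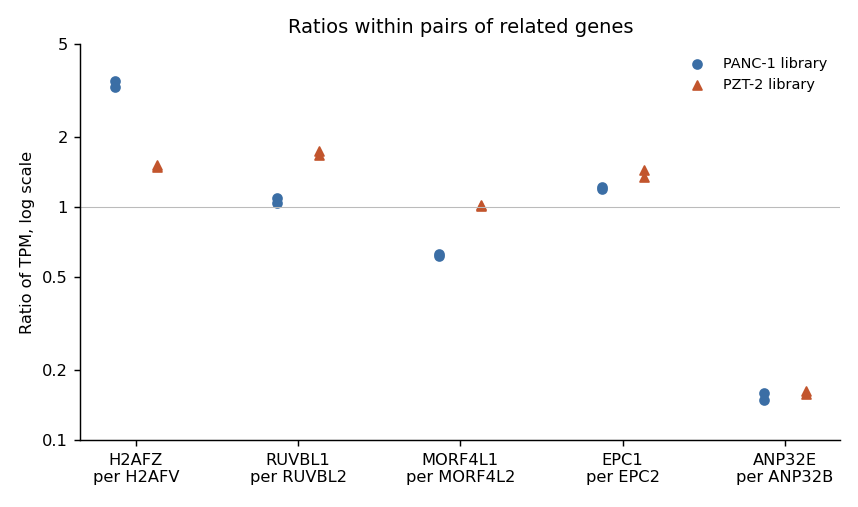
Ratio of the TPM of 5 pairs of related genes in each library, on a log scale. PANC-1 and PZT-2 libraries separate for H2AFZ per H2AFV, RUVBL1 per RUVBL2 and MORF4L1 per MORF4L2, and they overlap for ANP32E per ANP32B.

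These pair ratios and those of INO80 and EP400 to SRCAP, apart from the ratio of the H2A.Z genes, were chosen after the values were seen. EPC1 per EPC2 was 1.20 and 1.22 in PANC-1 and 1.45 and 1.34 in PZT-2. With 2 libraries against 2 each ratio that separated has an exact permutation p of 0.333, the smallest possible.

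Of the 14 genes of the INO80 complex 3 were called higher and 3 lower (21.4% each), beside 14.7% and 13.7% of all genes. Of the 11 that it does not share with the others 1 rose (9.09%) and 2 fell (18.2%). ACTR8, an actin-related subunit of the module that senses linker DNA, was at 276 and 310 normalized counts in PANC-1 and at 470 and 482 in PZT-2, a log2 change of 0.70 (SE 0.0958, adjusted p = 0.00341). It kept its call under all 16 alternatives. INO80D, a metazoan subunit, was at 192 and 228 in PANC-1 and at 135 and 107 in PZT-2, a log2 change of -0.80 (SE 0.164, adjusted p = 0.0135). It was the lowest member per length, at 1.70 and 2.06 TPM in PANC-1 and 1.25 and 0.989 TPM in PZT-2. MCRS1, which also has roles outside the complex, was at 1551 and 1567 in PANC-1 and at 1261 and 1295 in PZT-2, a log2 change of -0.29 (SE 0.0585, adjusted p = 0.0136). The libraries of ACTR8, INO80D and MCRS1 did not overlap between the lines.

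The other INO80 genes besides the ATPase did not pass: ACTR5, INO80B, INO80C, INO80E, NFRKB, TFPT and UCHL5 had log2 changes from -0.21 (ACTR5, adjusted p = 0.189) to 0.17 (INO80C, adjusted p = 0.296). UCHL5, the deubiquitinase of the complex, had a log2 change of 0.14 from the 5 transcripts with a symbol and of -0.0058 when 4 further transcripts that RefSeq places in the gene were added. INO80D was not called without PZT-2 replicate 2 (-0.64, adjusted p = 0.0823) or with limma-trend on log2(TPM + 1) (-0.44 on that scale, adjusted p = 0.0818) or log2(TPM + 0.1) (-0.70, adjusted p = 0.104). MCRS1 was not called without PZT-2 replicate 1 (-0.27, adjusted p = 0.105) or replicate 2 (-0.31, adjusted p = 0.0861) or relative to GAPDH (-0.11, adjusted p = 0.321).

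Counting only the most abundant transcript of each gene ended more calls than any other setting. Of the called members H2AFZ, ANP32B, DMAP1, RUVBL2, MORF4L2, MEAF6 and ACTR8 were also called in this way. H2AFV, SRCAP, VPS72, ZNHIT1, ACTR6, RUVBL1, ACTL6A, KAT5, EPC2, MRGBP, MORF4L1, INO80D and MCRS1 had the same direction without passing. Their adjusted p values ran from 0.0501 for SRCAP to 0.698 for ACTR6. BRD8 had a log2 change of 0.14, the opposite sign. SRCAP, ZNHIT1, EPC2 and INO80D have 1 transcript with values each, so their own counts stayed the same in this setting. For these genes only the counts of other genes changed, and with them the fit and the adjustment.

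**Figure D4:**
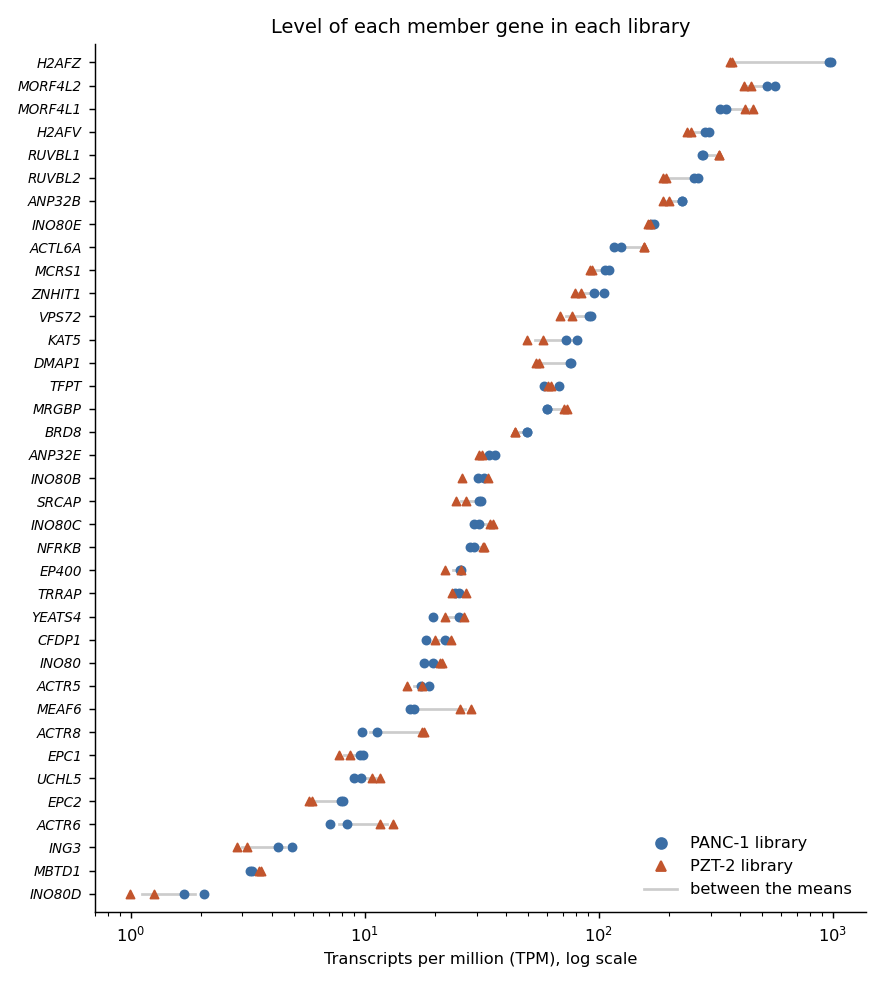
TPM of each member in each of the 4 libraries on a log scale, ordered by the mean of PANC-1. Levels run from 985 TPM for H2AFZ in PANC-1 to 0.989 TPM for INO80D in PZT-2, and the PZT-2 libraries of H2AFZ lie at 363 and 369 TPM.

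The levels of the members differed far more among genes than between the lines. In PANC-1 the mean TPM ran from 975 for H2AFZ, 545 for MORF4L2, 340 for MORF4L1 and 290 for H2AFV to 278 for RUVBL1 and 260 for RUVBL2. The ATPases were much lower, at 31.0 for SRCAP, 25.7 for EP400 and 18.8 for INO80, and the subunits MBTD1 and INO80D lay at 3.26 and 1.88. Subunits of 1 complex were thus far from equal in mRNA, and the 7 highest members of PANC-1 were also the 7 highest of PZT-2. MEAF6 moved furthest in this order, from rank 29 to rank 22.

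Several members lie in chromosome segments whose genes shifted together. On chromosome 3, of 836 genes tested 404 were called higher and 21 lower, with a median log2 change of 0.43, and on chromosome X 30 of 475 were higher and 171 lower, with a median of -0.29. RUVBL1, ACTL6A and ACTR8 are on chromosome 3, and the median of up to 20 tested genes on each side of them was 0.39, 0.43 and 0.26. The rise of RUVBL1 and ACTL6A was smaller than that of their neighbours, and the rise of ACTR8 was larger by 0.43 on the log2 scale. MORF4L2 is on chromosome X, and its -0.39 lay beside a neighbour median of -0.43. The neighbours of MORF4L1, on chromosome 15, had a median of 0.25 and those of BRD8, on chromosome 5, of -0.21, both close to the member's own value. H2AFZ on chromosome 4 and H2AFV on chromosome 7 had neighbours at -0.18 and -0.13. For KAT5, RUVBL2, MEAF6 and ACTR6 the neighbour medians were 0.025, 0.015, 0.060 and -0.16, far from the -0.58, -0.51, 0.70 and 0.64 of the genes themselves. Whether the shift of a segment has a part in a member's value was not tested.

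**Figure D5:**
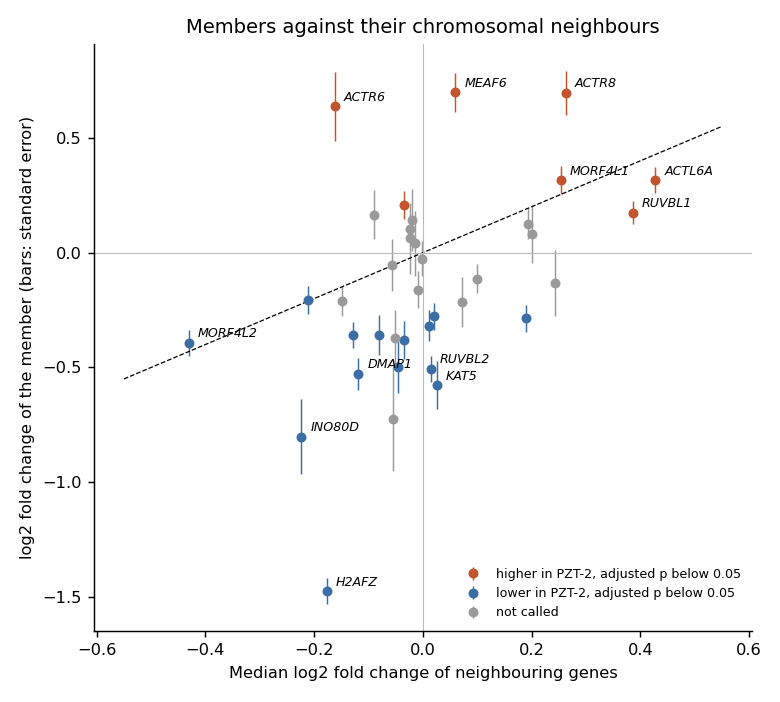
Log2 fold change of each member with its standard error against the median log2 fold change of its tested neighbours, up to 20 on each side, with equality as a broken line. MORF4L1, at 0.31 with neighbours at 0.25, and MORF4L2, at -0.39 with neighbours at -0.43, lie near the line, and H2AFZ, KAT5, RUVBL2, MEAF6 and ACTR6 lie away from it.

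Among 24 further genes of the pathway, 3 were called higher (12.5%) and 6 lower (25%), beside 14.7% and 13.7% of all genes. The median log2 change of the 24 was 0.060. Of 3 other subunits, ACTB, the actin of these complexes and of the cytoskeleton, fell (-0.51, adjusted p = 0.000379) and YY1, the DNA-binding partner of INO80, rose (0.41, adjusted p = 0.00402). Of 7 proteins that read H2A.Z nucleosomes or bind such readers, PWWP2B (-0.47, adjusted p = 0.00552) and PHF14 (-0.29, adjusted p = 0.0406) fell. PWWP2A, the better known H2A.Z reader, was at a log2 change of -0.015 (adjusted p = 0.957). Of 8 histone chaperones, importers and related acidic proteins, NAP1L1 (-0.26, adjusted p = 0.00993) and SSRP1, a FACT subunit (-0.32, adjusted p = 0.00519), fell. ANP32A (0.26, adjusted p = 0.0416) rose, and SUPT16H, the partner of SSRP1 in FACT, was at 0.13 (adjusted p = 0.396). Of 6 enzymes that modify H2A.Z, the deacetylase SIRT1 fell (-0.41, adjusted p = 0.00816). The other 5, SETD6, SMYD2, RING1, RNF2 and USP10, did not pass. The neighbours of ANP32A, on chromosome 15, had a median of 0.25, close to its own value.

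The recovered counts came to between 12861478 and 15717699 per library. Markers of the line were mixed. The epithelial keratins KRT8, KRT18 and KRT19 lay between 1213 and 3153 TPM. KRT8 was at 3127 and 3153 TPM in PANC-1 and at 1472 and 1424 TPM in PZT-2. KRT18 was at 2041 and 2036 TPM in PANC-1 and at 1213 and 1214 TPM in PZT-2. KRT19 was at 2058 and 2192 TPM in PANC-1 and at 1356 and 1315 TPM in PZT-2. The epithelial markers KRT7 and EPCAM were low, between 6.75 and 11 TPM. VIM, a marker of mesenchymal traits, was the highest of these, at 6396 and 6497 TPM in PANC-1 and at 4875 and 4742 TPM in PZT-2. The endothelial marker PECAM1 was below 0.24 TPM in every library, and PTPRC, PRSS1, CPA1 and INS were not listed in the table. A lower level of a gene in bulk RNA can come from less RNA per cell or from fewer cells that express it, which cannot be told apart here.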

How the data were processed

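mRNA of 4 libraries was analysed, 2 of PANC-1 and 2 of PZT-2, read from both ends of stranded libraries on an Illumina sequencer. According to the submitters' processing notes, reads were trimmed with Trim Galore 0.4.1, transcripts were estimated with kallisto 0.43.0 and the lines were compared with sleuth 0.29.0. The notes name hg19, and the release of the RefSeq index is not given in the sources used here. The authors deposited estimated counts, TPM and effective lengths of 31077 transcripts, and the comparison columns of their second table were not used. The deposited estimated counts and TPM carry 1 factor per library, so the TPM were treated as a score and not used. Undoing factors of 1.16, 0.935, 1.03 and 1.01 made 41.0% to 42.2% of values between 0.5 and 30 whole within 0.01, in genes of 1 transcript, against 0.915% to 2.39% before. TPM given here were recomputed from the recovered counts and effective lengths.

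Symbols came from the table for 27049 transcripts and from RefSeq (GRCh38.p14) for 3921, and 107 with 0.0476% of the counts stayed unnamed, including 4 of UCHL5 that the rule for members leaves out. Chromosomes and neighbours are from the same annotation, and the junction sequences are from GENCODE 29 (GRCh38). Counts were summed per gene, rounded and tested with edgeR 4.0.16 in R 4.3.3 (TMM, quasi-likelihood test, threshold 0.05 after Benjamini-Hochberg adjustment) where at least 5 counts were present in at least 2 libraries. Normalized counts are on the scale of the mean library. Transcripts were tested in the same way, and their usage with diffSpliceDGE. The gene, transcript and usage tests of edgeR, DESeq2 and limma-trend were tried on simulated counts, and the other steps were not. Members and lists were chosen with earlier results of these data known. Values by library are given for both H2A.Z genes, the ANP32 chaperones, the ATPases and each called member, and partner genes are named where called, except 1 that is counted but not reported here; PWWP2A, SUPT16H, UCHL5 NM_001350846 and genes that were not called are named beyond this rule. Alternatives were RLE factors, DESeq2 1.42.0, no filter, a minimum of 10 counts in every library, limma-trend (limma 3.58.1) on log2 TPM with pseudocounts of 1 and 0.1, counts as deposited, length-scaled counts, the most abundant transcript, a replicate block and each library left out. The edgeR version 4 dispersion estimate, GAPDH as the reference and 4 further UCHL5 transcripts were added after the values were seen.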

Additional observations from a re-analysis of the deposited data

How the results depend on the processing

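Of the 21 called members, H2AFZ, DMAP1, RUVBL2, MEAF6 and ACTR8 were called under all 16 alternatives. Members called higher numbered 2 with the most abundant transcript alone and 2 to 7 with a library left out, those called lower 5, 7 to 14 and, relative to GAPDH, 5. Among the libraries left out, the 2 counts together were lowest without PZT-2 replicate 2 (2 higher, 7 lower) and PZT-2 replicate 1 (4 higher, 7 lower), and a line left with 1 library is assumed to vary like the other. Of all genes, 1133 and 993 were called higher and lower with the most abundant transcript, 3493 and 906 relative to GAPDH and 1086 to 2438 and 933 to 2202 with a library left out. Partner genes called higher numbered 1 with the most abundant transcript, 6 relative to GAPDH and 1 to 6 with a library left out, and those called lower 3, 2 and 2 to 7. H2AFV had a log2 fold change of -0.26 with its most abundant transcript (adjusted p = 0.0687), -0.18 relative to GAPDH and -0.39 to -0.32 with a library left out. Member transcripts called numbered 6 with at least 10 counts in all 4 libraries and 19 with DESeq2. By edgeR with all libraries, 24 of the 104 tested had an unadjusted p below 0.05, beside 5614 of 30403 transcripts over all genes. The rise of the H2AFV share was 18.9 percentage points by counts and 16.4 to 17.5 by TPM with a library left out.

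With the replicate number as a block, 5 members were called higher and 13 lower, 1 partner higher and 5 lower, and 0 member transcripts. Nothing in the labels pairs the numbers, and deviations of same-numbered libraries had a correlation of -0.0203 over 15101 genes.

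The sign changed only for members near 0 or with several transcripts. With the most abundant transcript alone the log2 fold change was 0.060 for TRRAP, 0.14 for BRD8, 0.46 for EPC1, -0.027 for NFRKB, -0.52 for UCHL5 and 0.034 for TFPT. Relative to GAPDH it was 0.013 for EP400, 0.15 for TRRAP, 0.042 for INO80B, 0.063 for INO80E and 0.12 for TFPT. With limma-trend TRRAP was at 0.025 and 0.025 with pseudocounts of 1 and 0.1, and with 4 further transcripts UCHL5 was at -0.0058. With a library left out, YEATS4 ranged from -0.090 to 0.23, CFDP1 from -0.072 to 0.15, TRRAP from -0.12 to 0.064, INO80B from -0.33 to 0.036, UCHL5 from -0.030 to 0.30 and TFPT from -0.20 to 0.090. The cause of these changes was not tested.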
